A study of Schizosaccharomyces pombe with 6 samples.

Results

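The ends of chromosome III of *Schizosaccharomyces pombe* were examined as the first and the last 100 kb of the chromosome (1 to 100000 and 2352884 to 2452883), cut into 400 bins of 500 bp out of the 25144 bins of the genome. The outermost sequence of each end belongs to the ribosomal DNA (rDNA), and the reference holds a left fragment from 1 to 23130 and a right fragment from 2440994 to the last base. These fragments, bounded by the 5′ ends of the innermost annotated 18S genes, gave 70 bins, 46 on the left and 24 on the right, and the remaining 330 bins are called the rest of the end zones. The centromeric histone variant Cnp1 (CENP-A), fused to CFP, was pulled down through its tag by an anti-GFP antibody in *SUMO-KallR* CFP-*cnp1* and WT CFP-*cnp1* cells, and an untagged strain without CFP-Cnp1 served as control for the antibody. *SUMO-KallR* cells carry *pmt3-KallR*, a SUMO in which lysines are replaced by arginines so that chains cannot form, while both tagged strains share CFP-*cnp1*:Kan and mutant alleles of *ade6*, *leu1* and *ura4*. All cultures grew exponentially in rich medium and received budding yeast Scc1-Pk cells as calibrator, and the full genotype of the untagged strain is not given in the sources used here. Each strain gave 1 ChIP and 1 input library, so no difference between strains or regions has an experimental error, and no test was made. The lists of peaks do not hold the depth of the libraries, which was not analysed here. The paper reports it, and WT had the fewest uniquely mapped reads among the ChIP libraries and the most among the inputs. The part of depth in the number of WT peaks was not tested.

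rDNA encodes the 18S, 5.8S and 28S RNAs of the ribosome in a unit that is repeated in tandem. In fission yeast the arrays lie at both ends of chromosome III next to the telomeres, and the reference holds only the innermost part of each array. Within a unit the 18S gene is followed by a first internal transcribed spacer (ITS1), 5.8S, a second one (ITS2) and 28S, and the stretch between 28S and the next 18S gene, called the spacer here, holds transcription terminators bound by Reb1 that also arrest replication forks. Cnp1 normally occupies the centromeric core, and the rDNA is not a centromere.

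The left fragment held 2 complete copies of the unit, read toward the chromosome end, and the right fragment held 1, also read toward the end. From the 5′ end of 18S to the base before the next 18S gene, the inner left copy (12261 to 23130) and the outer left copy (1391 to 12260) measured 10870 bp each and were identical. The right copy (2440994 to 2451882) measured 10889 bp. It was 99.9% identical to the left copies over 10862 aligned bases, with 12 substitutions, all of them in the spacer. Gaps came to 2 bases in ITS1, 2 in ITS2 and 31 in the spacer, and the 18S, 5.8S and 28S genes did not differ. The stretch just after 28S is shown here for the inner left copy (16585 to 16845, minus strand) and the right copy (2447279 to 2447549, plus strand) of ASM294v3, because the highest *SUMO-KallR* summit of the right end lay in it. The outer left copy has the same sequence as the inner one. Capitals mark bases that the other copy lacks or has in another form, and the place of the 9 inserted bases within the run of gaa is arbitrary.
Inner left copy after 28S: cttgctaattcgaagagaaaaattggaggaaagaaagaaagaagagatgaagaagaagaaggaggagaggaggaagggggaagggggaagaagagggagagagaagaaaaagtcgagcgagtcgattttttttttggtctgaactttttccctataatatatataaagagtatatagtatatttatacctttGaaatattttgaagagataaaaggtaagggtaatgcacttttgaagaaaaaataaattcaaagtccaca
Right copy after 28S: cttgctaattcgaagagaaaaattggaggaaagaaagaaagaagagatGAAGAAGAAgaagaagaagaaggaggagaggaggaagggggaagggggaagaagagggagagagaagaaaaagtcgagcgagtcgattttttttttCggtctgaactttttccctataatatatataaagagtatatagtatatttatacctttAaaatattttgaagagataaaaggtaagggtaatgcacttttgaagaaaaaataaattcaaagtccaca
The right copy has 11 such bases in this stretch of 271. Every 150-base sequence, taken as the length of a read, that starts in it occurred only once in the reference. None of the sequences that start in the inner left stretch did, and copies of the unit that the reference lacks were not counted.

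ITS2, AT-rich and 300 bp long in each copy, is shown because both lists with peaks had summits in it on the left and because its copies differed in peaks while differing in 2 single-base gaps. The inner left copy lies from 20412 to 20711 on the minus strand and the right copy from 2443413 to 2443712 on the plus strand, and capitals mark the base the other copy lacks, placed arbitrarily within its run of T.
Inner left copy, ITS2: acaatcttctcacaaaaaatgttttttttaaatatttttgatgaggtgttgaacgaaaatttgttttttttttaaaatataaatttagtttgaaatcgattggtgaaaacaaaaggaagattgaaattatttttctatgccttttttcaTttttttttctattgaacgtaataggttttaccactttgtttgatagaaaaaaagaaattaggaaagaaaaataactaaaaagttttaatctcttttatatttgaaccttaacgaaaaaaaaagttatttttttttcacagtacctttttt
Right copy, ITS2: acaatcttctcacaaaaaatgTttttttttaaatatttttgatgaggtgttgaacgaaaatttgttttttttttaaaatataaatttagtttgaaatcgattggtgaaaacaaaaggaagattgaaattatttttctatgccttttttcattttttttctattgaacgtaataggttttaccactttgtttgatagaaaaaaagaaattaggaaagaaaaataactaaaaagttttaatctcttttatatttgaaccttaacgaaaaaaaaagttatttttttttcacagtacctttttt
In the inner left copy the *SUMO-KallR* summit (20574, height 339.3) and the untagged summit (20586, height 261.6) lay 137 and 125 bases after the first base of this sequence, 12 bp apart. The height is the highest −log10(*p*-value) of a peak, the deposited score divided by 10, and it serves to rank peaks within a list. Ranks that set rDNA beside other sequence have a limit. The reference holds only the innermost part of each array, and the lists do not give the reads behind a height. The right copy of ITS2 had no base under *SUMO-KallR* peaks and 19.3% under those of the untagged strain.

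In *SUMO-KallR* cells peaks covered 75.4% of the end zones, in WT cells no base, and in the untagged strain 81.0%. The zones held the summits of 53 *SUMO-KallR* peaks and of 44 untagged peaks. The nearest WT peaks on chromosome III lay 965.4 kb from the left zone and 1103.7 kb from the right zone. By bins, at least 50% of the bases were under *SUMO-KallR* peaks in 308 of the 400 (77.0%), under WT peaks in 0, and under untagged peaks in 324 (81.0%). In the whole genome 93.7% of bins were under *SUMO-KallR* peaks, 1.11% under WT peaks and 95.6% under untagged peaks. The end zones were thus covered less than the genome by *SUMO-KallR* and untagged peaks. Of the 800 bins within 100 kb of the ends of chromosomes I and II, *SUMO-KallR* peaks took in 84.6% and untagged peaks 90.9%, with lowest values for a single end of 79.5% and 85%. Each end of chromosome III, with its rDNA, lay below these lowest values. The shares were 76.5% on the left and 77.5% on the right in *SUMO-KallR*, and 80.0% and 82.0% in the untagged strain. Without the rDNA bins this no longer held for *SUMO-KallR*, with 81.2% on the left and 82.4% on the right. In the untagged strain the left end then had 84.4% and the right end 85.2%, close to the lowest value of 85%.

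**Figure D1:**
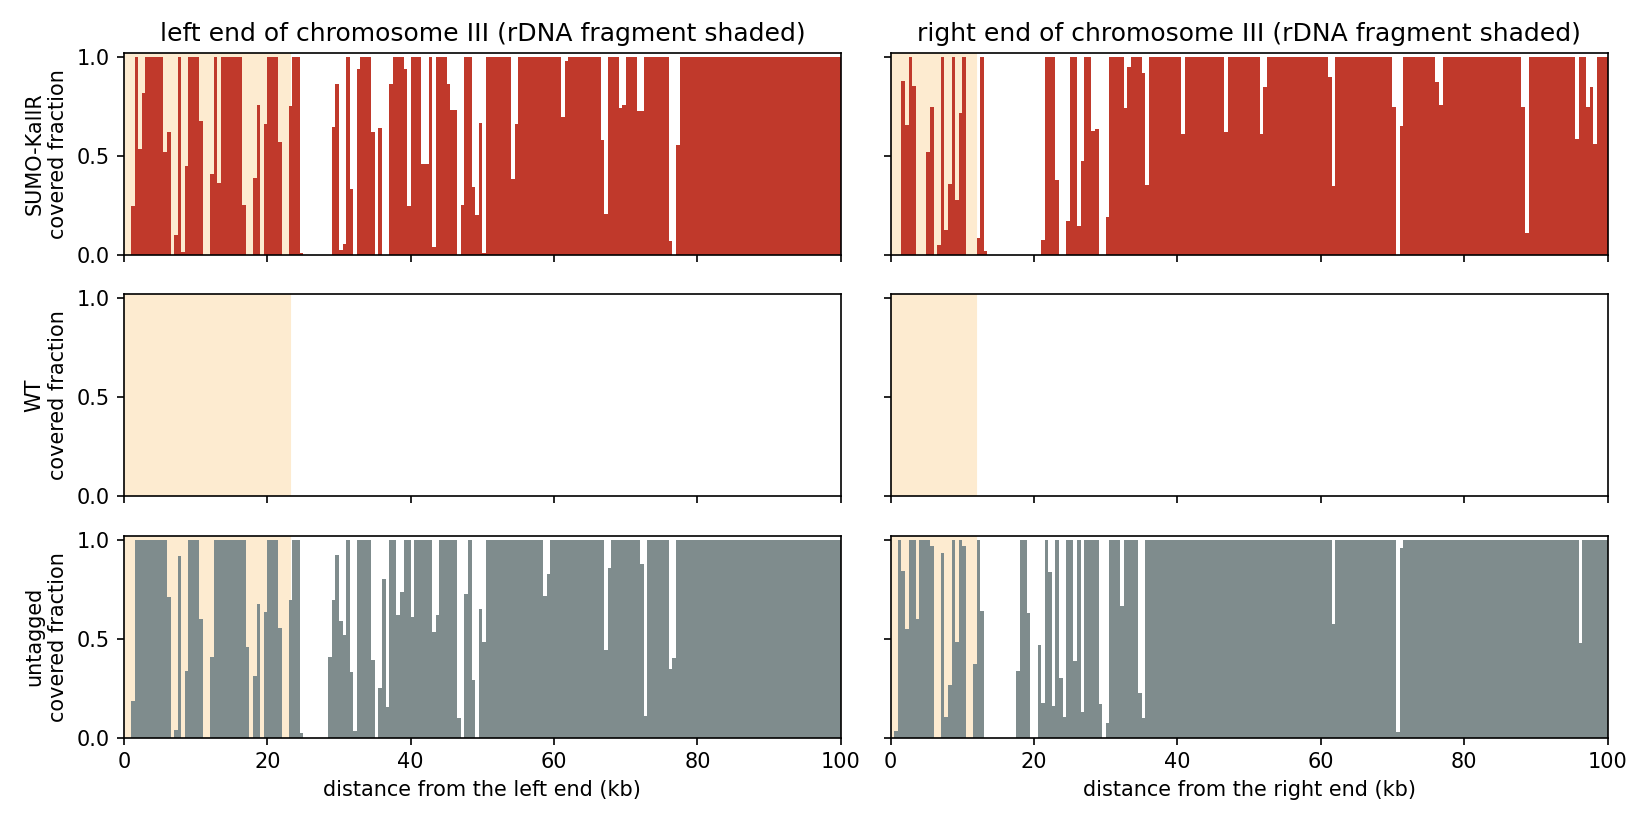
Fraction of each 500 bp bin under *SUMO-KallR* (top), WT (middle) and untagged (bottom) peaks, against the distance in kb from the left or the right end of chromosome III, with the rDNA fragments shaded. WT has no peak in either zone, and both other lists leave gaps within the rDNA and just inside it and cover most bins farther inward.

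The rDNA fragments were covered less than the rest of the end zones in both lists with peaks. In *SUMO-KallR*, peaks covered 52.2% of the fragments and 80.3% of the rest. In the untagged strain they covered 62.4% of the fragments and 85% of the rest. *SUMO-KallR* peaks took in 38 of the 70 rDNA bins and untagged peaks 44, against 270 and 280 of the 330 other bins. The heights ran the other way. The 15 *SUMO-KallR* peaks with a summit in the fragments had heights of 71.5 to 693.4 with a median of 266.6, and the 12 untagged ones 35.6 to 261.6 with a median of 122.25. Only at the inner edges did peaks of such a height lie outside the fragments, at 24386 (332.6) and 2440212 (269.7) in *SUMO-KallR* and at 24329 (170.1) and 2440310 (129.8) in the untagged strain. By alignment the rDNA repeats run on for 1448 bp inside the left border and 1447 bp inside the right one, and these 4 summits lay in that sequence, upstream of the innermost 18S genes. The other 36 *SUMO-KallR* peaks of the zones had heights of 2.7 to 20.1 with a median of 7.75, and the other 30 untagged peaks 1.7 to 21.6 with a median of 6.6. The lowest peak in the repeats was 3.56 times as high as the highest outside them in *SUMO-KallR* and 1.65 times among untagged peaks. When peaks had to exceed the 95th percentile of untagged heights (48.3), 52.2% of the fragments and 1.17% of the rest stayed under *SUMO-KallR* peaks. Under untagged peaks 59.7% of the fragments and 1.39% of the rest stayed. The order of the 2 kinds of region thus turned round. This restates the split in heights, since no peak outside the repeats was higher than 21.6.

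Outside the centromeres, taken as 50 kb on each side of the highest WT summit of a chromosome, the 15 highest *SUMO-KallR* peaks of the genome all had their summits in these end zones, 13 of them in the fragments. In the untagged strain the zones held 11 of the 15 highest, 9 of them in the fragments. Medians over all peaks outside the centromeres were 15.8 in *SUMO-KallR* (1596 peaks) and 17.9 in the untagged strain (913 peaks). The highest summits within 100 kb of the ends of chromosomes I and II were 57.6 for *SUMO-KallR* and 103.9 for the untagged strain. Whether a height in the rDNA repeats can be set beside one in other sequence was not tested, so these ranks are no measure of binding.

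Within the left copies of the unit, less than 50% of the 18S and 28S genes was covered by either list, and at least 86.0% of every other portion. The right copy differed from this in 5.8S, ITS2 and the spacer for *SUMO-KallR* peaks, and in ITS2 alone for untagged peaks. The 18S gene, of the small ribosomal subunit, had 22.7% of its length under *SUMO-KallR* peaks in the outer left copy (SPRRNA.43), 27.4% in the inner left copy (SPRRNA.44) and 24.5% in the right copy (SPRRNA.46). For untagged peaks the values were 20.8%, 26.5% and 27.9% in the same copies. The 18S gene was thus covered to a like extent by both lists in all 3 copies, mainly over the 3′ part next to ITS1. The 28S gene, of the large subunit, had 46.8% (SPRRNA.47, outer left), 37.7% (SPRRNA.48, inner left) and 45.7% (SPRRNA.49, right) under *SUMO-KallR* peaks, and 42.7%, 43.7% and 46.1% under untagged peaks. Its middle carried a peak in every copy and both lists. In *SUMO-KallR* the summits of these peaks were 145.4 high in the outer left copy, 142.8 in the inner left copy and 134.9 in the right copy. In the untagged strain they were 35.6, 47.3 and 68.1 high. The right 28S gene had a further peak toward its 5′ end, 292.3 high for *SUMO-KallR* and 110.4 for the untagged strain, where on the left the peak over ITS2 reached into 28S. The 5.8S gene, also of the large subunit, lay wholly under peaks of both lists on the left (SPRRNA.50 and SPRRNA.51). On the right (SPRRNA.52) it had no base under *SUMO-KallR* peaks and all bases under untagged peaks. ITS1 was covered fully on the left by both lists, and on the right 98.5% by *SUMO-KallR* peaks and fully by untagged peaks. The 18S genes cut off by the ends of the sequence had 1.01% (SPRRNA.42) and 0% (SPRRNA.45) of their length under *SUMO-KallR* peaks, and 0% and 1.80% under untagged peaks. Of the 11 rRNA genes, 2 were under *SUMO-KallR* peaks over at least 50% of their length and 3 under untagged peaks, all of them 5.8S genes. In the genome 76.6% and 83.0% of the annotated rRNA genes were, with these 11 included. Of the 36 rRNA genes elsewhere in the genome 94.4% and 100% were. Those 36 lie outside the rDNA fragments and were not matched to the 11 by kind of rRNA.

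Of the 11 long non-coding RNA genes that the annotation places in the fragments, all in the spacer, *SUMO-KallR* peaks covered 9 and untagged peaks all 11, where 92.5% and 95% of such genes in the genome were covered. Both exceptions lay in the right copy. SPNCRNA.7772 had no base under *SUMO-KallR* peaks and 96.6% under those of the untagged strain, and SPNCRNA.1299 had 6.73% and 72.9%. The 8 on the left lay wholly under peaks of both lists. Among them were SPNCRNA.6666 and SPNCRNA.6667 at the *SUMO-KallR* summit of 259.4 in the outer left copy, and SPNCRNA.6673 and SPNCRNA.6674 at that of 266.6 in the inner one. Just inside the left border, SPNCRNA.1095 held the summit of 332.6 in *SUMO-KallR* and that of 170.1 in the untagged strain.

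**Figure D2:**
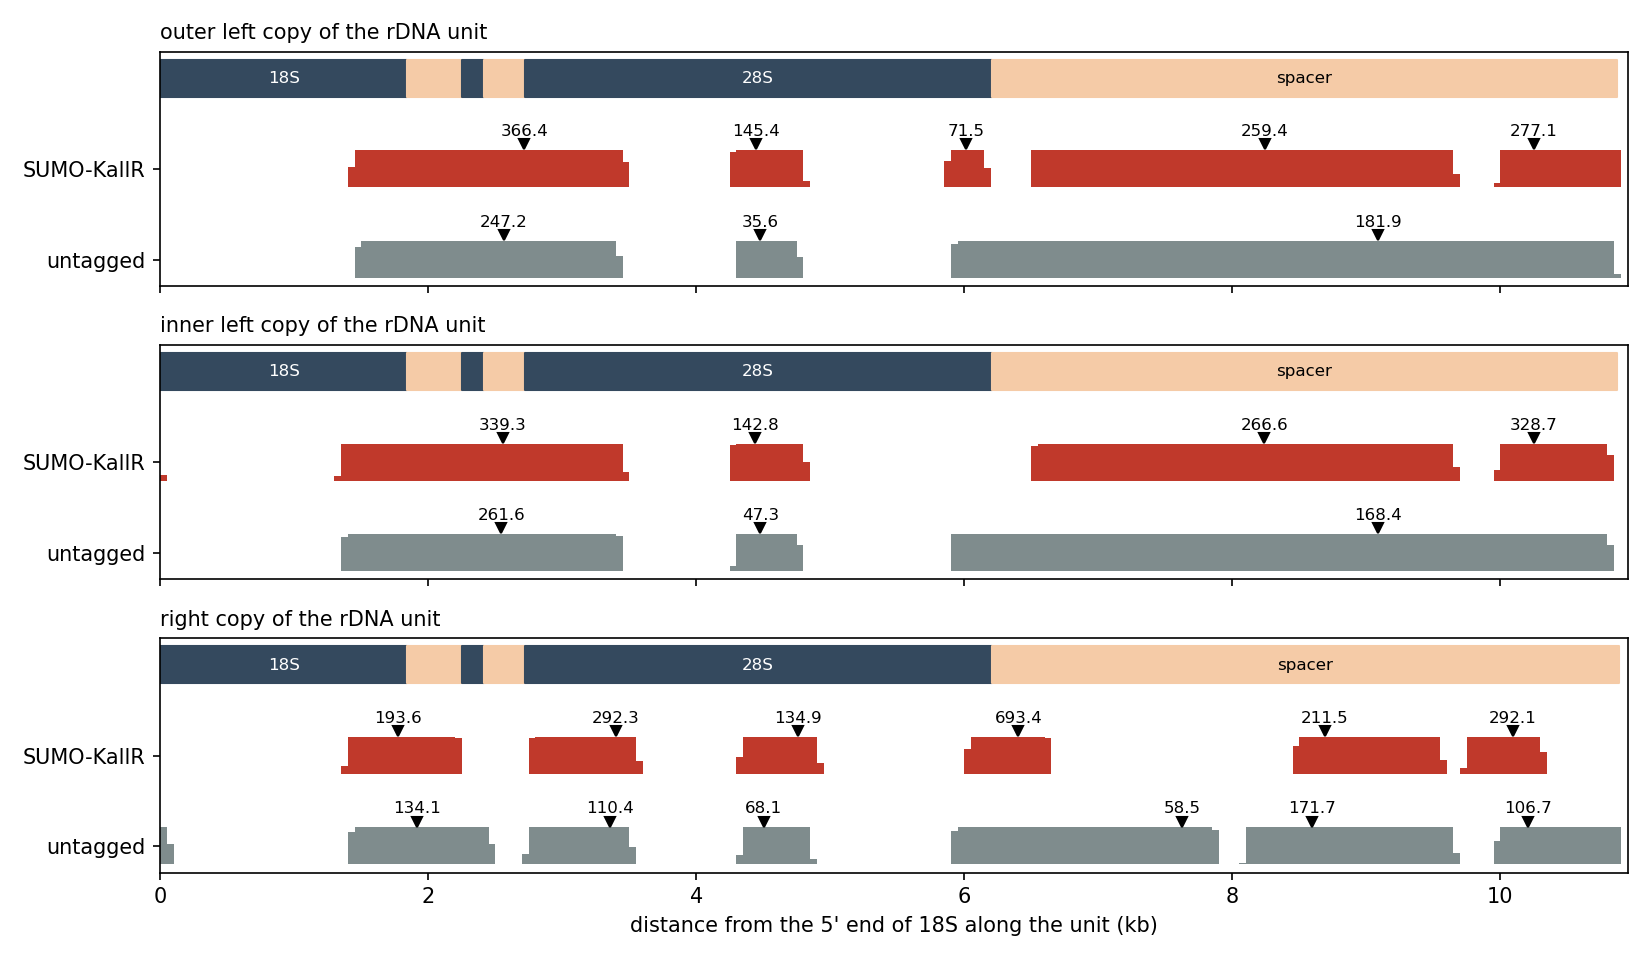
Peaks over the 3 complete copies of the rDNA unit against the distance in kb from the 5′ end of 18S, with rRNA genes in dark blue (5.8S is the narrow box before 28S) and spacers in orange. Red (*SUMO-KallR*) and grey (untagged) bars show the covered fraction of 50 bp steps, and triangles mark summits with their heights. The left copies carry nearly the same pattern, apart from the *SUMO-KallR* peak of 71.5 in the outer one, and the right copy has the summit of 693.4 where *SUMO-KallR* peaks leave a gap on the left.

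The left copies are identical, and no sequence of the length of a read that starts in them is unique in the reference. A read can thus not be assigned to either copy by its sequence. The agreement between the left copies is therefore no measure of how far the same sequence differed within a list. It gives no scale for the comparison of left and right either, and the values are descriptions. At 95.5% of the 10870 positions both left copies had the same state (under a peak or not) for *SUMO-KallR*, and at 98.5% for the untagged strain. The heights of matching *SUMO-KallR* peaks, outer before inner copy, were 366.4 and 339.3 over ITS2, 259.4 and 266.6 in the middle of the spacer, and 277.1 and 328.7 before the next 18S gene. A *SUMO-KallR* peak of 71.5 at the 3′ end of 28S (6085 to 6395) had no match in the inner copy. Between the inner left and the right copy the state was the same at 63.0% of aligned positions for *SUMO-KallR* and at 89.6% for the untagged strain. In *SUMO-KallR* 3073 positions were under peaks only on the left and 948 only on the right. The left fragment as a whole was covered to 59.2% and the right one to 38.6% by *SUMO-KallR* peaks, and to 64.5% and 58.5% by untagged peaks. Much of this lay in the spacer. *SUMO-KallR* peaks covered 86.7% of it in the outer left, 86.0% in the inner left and 45.7% in the right copy, and untagged peaks 99.6%, 99.25% and 89.2%.

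Right and left fragments also differed in how far a read can be placed within the reference, which lacks the rest of each array. The left fragment held no 150-base sequence that occurs once in the reference, and in the right fragment 19.2% of start positions gave one. By part of the right copy the share was 65.8% in ITS1, 72.7% in 5.8S, 50.0% in ITS2 and 35.9% in the spacer, but 0.977% in 18S and 0.201% in 28S. At the 2250 unique start positions of the right fragment, *SUMO-KallR* peaks covered 32.9% and untagged peaks 93.2%, and at the 9491 others 40.5% and 51.2%. The part of read placement in the difference between left and right was not tested. The authors state that reads from rDNA were filtered out, and the lists nevertheless hold peaks in both fragments, the left one included. The lists are also described as built from uniquely mapped reads. Yet the left fragment, without a unique start position, was covered to 59.2% in *SUMO-KallR* and to 64.5% in the untagged strain. How this came about was not tested. Which reads the peaks of both fragments rest on cannot be told from the lists. Coverage, heights and copy patterns of the left fragment share this limit.

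The highest *SUMO-KallR* peak of the end zones, and of the genome outside the centromeres, ran from 2447011 to 2447642 with its summit of 693.4 at 2447399, 202 bp after the 3′ end of 28S in the stretch printed above. It ranked 4 among all 1615 peaks of its list. Of its start positions 71.5% gave a unique 150-base sequence, while no other *SUMO-KallR* peak of the right fragment had more than 33.7%. An untagged peak ran over the same place from 2446899 to 2448890, but its summit of 58.5 lay at 2448622, so it gives no height at 2447399. This untagged peak had the most unique start positions of its list in the right fragment (74.2%) and the lowest height there, the opposite of *SUMO-KallR*. At the matching positions on the left, 16734 and 5864, no *SUMO-KallR* peak was found. The nearest *SUMO-KallR* peaks ended 108 bp away in the inner copy (266.6) and 104 bp away in the outer copy (259.4). Untagged peaks of 168.4 and 181.9 ran over both positions, with summits elsewhere.

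The printed stretch also holds the letters AAGGGTAAT, the core of the sites that Reb1 binds in the fission yeast rDNA. The motif was searched on both strands and overlaps no other motif searched here. Each of the 3 copies held it at 2 places after 28S, 299 and 482 bp after its end on the left and 309 and 492 bp after it on the right. They are shown with 15 bases on each side and the motif in capitals, the right copy being the same as the left in both.
First site, inner left copy (16605 to 16643, minus strand): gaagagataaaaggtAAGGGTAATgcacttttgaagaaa
Second site, inner left copy (16422 to 16460, minus strand): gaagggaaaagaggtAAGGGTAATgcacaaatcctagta
These 6 places were 6 of the 7 matches in the end zones, and 1.25% of the 400 bins held the motif, against 0.617% of bins in the genome. The right summit of 693.4 lay before the first site. *SUMO-KallR* peaks covered the first site on the right and not the second, and on the left the second site in both copies and the first in the outer copy, while in the inner copy the peak ended within the first site. Untagged peaks covered all 6. A match of letters says nothing of what was bound there.

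The rDNA bins without any peak were GC-rich. Of the 70 rDNA bins, 13 had no base under either list. Their median GC content was 45.4% (42.2 to 49.4%), against 33.0% (23.0 to 51.6%) for the 38 bins under both lists. In the rest of the end zones it was the other way round, with a median of 31.2% (25.4 to 39.0%) in 19 bins under neither list and 35.9% (25.6 to 48.2%) in 262 bins under both. In the right fragment 10 bins had no base under *SUMO-KallR* peaks, and 4 of them, under untagged peaks alone, were AT-rich (27.0 to 31.6% GC). Across the 70 rDNA bins, Spearman's correlation of GC content and covered fraction was -0.38 for *SUMO-KallR* and -0.70 for the untagged strain, and across the other 330 bins it was 0.46 and 0.31. By fragment it was -0.63 on the left (46 bins) and 0.06 on the right (24 bins) for *SUMO-KallR*, and -0.75 and -0.64 for untagged peaks, so for *SUMO-KallR* it was negative on the left alone. Neighbouring bins share peaks, and the copies of the unit share their base composition, so these values are descriptions. In the rDNA, GC content also follows the parts of the unit, with 47.1% in 28S, 45% in 18S and 43.0% in 5.8S. ITS1 had 19.7%, ITS2 21.0% and the spacer 30.9%. The 5.8S gene was nonetheless wholly under peaks of both lists on the left, and on the right of untagged peaks alone. The parts of GC content and of gene body cannot be told apart here.

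**Figure D3:**
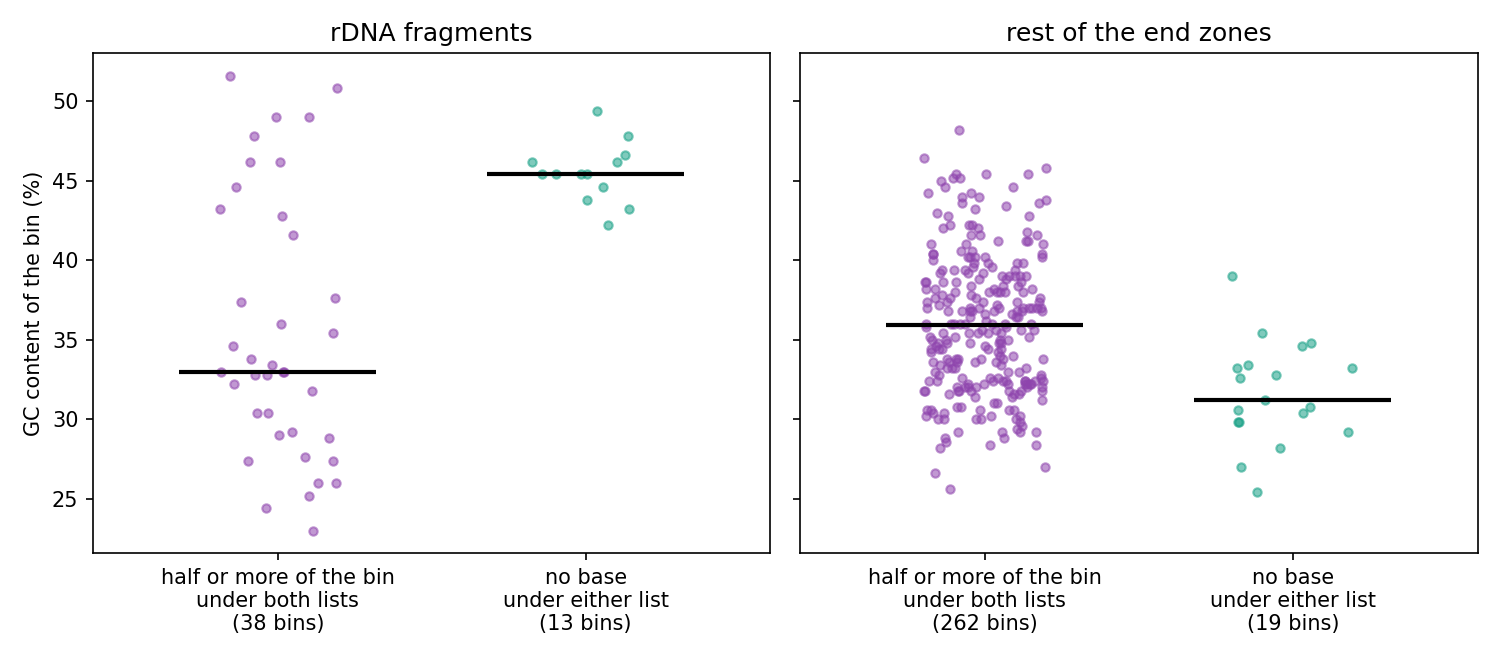
GC content in % of single 500 bp bins in the rDNA fragments (left panel) and in the rest of the end zones (right panel), for bins with at least 50% of their bases under both *SUMO-KallR* and untagged peaks and for bins with no base under either, with lines at the medians. In the rDNA the bins without peaks are GC-rich (median 45.4% against 33.0%), and in the rest they are AT-rich (31.2% against 35.9%).

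Just inside the repeats, both ends held a long stretch without peaks of any list. It ran from 24579 to 28795 on the left (4217 bp) and from 2435053 to 2439546 on the right (4494 bp). With the uncovered end of the repeats the stretches measured 4284 bp and 4821 bp, and they were the longest of the 35 stretches under neither list in the end zones, of which 10 measured at least 1 kb. Both belong to sequence that the ends share in inverted orientation, which includes the rDNA and aligns from 11260 to 33054 on the left with 2431086 to 2452883 on the right at 98.8% identity. Of 150-base sequences starting in the stretches 8.54% on the left and 13.3% on the right occurred once in the reference. The neighbouring rDNA repeats, with 0.508% on the left and 17.1% on the right, had the highest peaks of the zones. Copies of the unit missing from the reference were not counted in the shares of the repeats. The part of read placement in the stretches without peaks was not tested. The first protein-coding genes inside the borders lay at these stretches. SPCP20C8.01c (28298 to 29423) had 28.6% of its length under *SUMO-KallR* peaks, with a summit of 2.7, and 49.2% under untagged peaks, with a summit of 4.2. SPCC569.01c (2434691 to 2436530) had none under *SUMO-KallR* peaks and 19.7% under those of the untagged strain.

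Counted from the rDNA border, coverage was higher farther inward at both ends, though not in every step. The first 10 kb hold these stretches and the end of the repeats. In the first 10 kb inside the border *SUMO-KallR* peaks covered 34.3% on the left and 9.78% on the right, and untagged peaks 42.4% and 31.3%. From 20 to 30 kb *SUMO-KallR* peaks covered 70.4% and 92.9%, and untagged peaks 72.0% and 89.98%, the left value being below the 77.8% between 10 and 20 kb. From 30 to 40 kb the shares were 93.6% and 97.2% for *SUMO-KallR* and 97.7% and 100% for untagged peaks, and farther in no step of 10 kb fell below 88.1% or 91.4%. The median height of the 5 *SUMO-KallR* peaks at each end between 10 and 20 kb was 6.0 on the left and 5.1 on the right. Between 30 and 40 kb the single peak on the left was 10.7 high and the 2 on the right had a median of 15.15. Untagged medians, over 1 to 6 peaks, were 5.8 and 4.35 between 10 and 20 kb, and 11.6 and 16.1 between 30 and 40 kb, but the single untagged peak on the left between 50 and 60 kb was 9.6 high. The highest peaks of the rest without the repeats were a *SUMO-KallR* peak of 20.1 with its summit in SPCC70.08c (2368478) and an untagged peak of 21.6 with its summit in *rpl902*, which encodes a ribosomal protein (90262). They ranked 289 and 190 outside the centromeres in their lists, far below the rDNA peaks.

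Of the 65 protein-coding genes of the zones each of these lists covered 61 (98.9% and 99.0% of such genes in the genome). The 4 exceptions were the same in both lists. Besides the first genes inside the borders these were *new22* and SPCC569.02c, neither with a base under any list. Of the 11 long terminal repeats, remnants of retrotransposons, *SUMO-KallR* peaks covered 2 and untagged peaks 3, where 37.8% and 67.6% of those in the genome were. The only tRNA gene of the zones, SPCTRNAHIS.03 for histidine tRNA, lay wholly under both lists. None of the *wtf* meiotic driver genes, *ght* hexose transporter genes, *pfl* and *gsf2* flocculin genes or Tf2 retrotransposons lies in the zones.

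*SUMO-KallR* and untagged peaks mostly covered the same bases of the end zones. Untagged peaks shared 96.1% of the sequence covered in *SUMO-KallR*, and *SUMO-KallR* peaks shared 89.5% of that covered in the untagged strain. In the whole genome these shares were higher, at 98.6% and 96.1%. At the single ends of chromosomes I and II they ran from 97.4% to 98.0% and from 89.4% to 91.5%. In the rDNA fragments these shares were 96.1% and 80.4%, and in the rest 96.1% and 90.9%. No bin was under *SUMO-KallR* peaks without a base under untagged peaks (0.461% of bins in the genome were). In the opposite case 8 of 400 bins were under untagged peaks with no base under *SUMO-KallR* peaks, which is 2% against 0.692% in the genome. The right end held 7 of these 8, with 4 in the rDNA spacer and 3 between 2433384 and 2434883, where the lncRNA gene SPNCRNA.7769 lies under an untagged peak of 6.5. The left end held 1, in SPNCRNA.6680 under an untagged peak of 2.4. The longest such stretches measured 1485 bp (2433568 to 2435052) and 1248 bp (2447643 to 2448890, right after the peak of 693.4 and reaching into SPNCRNA.7772). The longest stretch under *SUMO-KallR* peaks alone measured 836 bp (2417434 to 2418269).

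Left and right end zones as a whole were covered alike, with 75.1% and 75.7% in *SUMO-KallR* and 79.3% and 82.8% in the untagged strain. Without the fragments the shares were 79.8% and 80.8% in *SUMO-KallR*, and 83.8% and 86.1% in the untagged strain. The larger difference lay in the fragments themselves, and their share of a zone differs too, since the left fragment is 23130 bp and the right one 11890 bp long.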

How the data were processed

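By the methods of the study, the authors used Cutadapt for trimming, Bowtie2 for mapping (ASM294v2 and SacCer3), Samtools to filter out unmapped, rDNA, mitochondrial and duplicate reads, and MACS3 to build the background, scale ChIP and input, apply the spike-in factor and call peaks, 1 ChIP library at a time. Tool versions and cutoff: not given in the sources used here. By the design text, background was later removed more strictly, and per the file headers the lists come from uniquely mapped reads. The deposited score was read, by MACS convention, as 10 times the highest −log10(*p*-value), and no header states this. Columns 2, 3 and 10 of the deposited lists give positions, used as such.

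Positions were set against ASM294v3 (RefSeq), within whose chromosomes all peaks end. A bin or gene counted as under peaks with at least 50% of its bases covered. A peak belongs to the region of its summit. Uniqueness was counted over 150-base sequences of both strands of the reference, so copies of the rDNA unit missing from it were not counted. Copies of the rDNA unit were aligned with MAFFT 7.526, and repeats were bounded by BLAST+ 2.17.0 (at least 95% identity over 500 bp). Scripts ran in Python 3.11.15 with pandas 2.3.3, NumPy 2.4.6, matplotlib 3.10.9 and SciPy 1.17.1. The code for coverage was tested on simulated data. The regions, lists and rules were chosen with earlier results of these data known. Named genes were the rRNA genes, those at the 10 highest summits of *SUMO-KallR* and the untagged strain, those in bins under only 1 list, and the first coding gene inside each border. Others (SPNCRNA.6667, *rpl902*, SPCC70.08c, *new22*, SPCC569.02c, SPCTRNAHIS.03) were named after their values were seen. Alternatives varied the minimum height, the bin and zone size, the merging of peaks, the overlap and the rDNA borders. The inputs were not analysed here.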

Additional observations from a re-analysis of the deposited data

How the results depend on the processing

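The cutoff of the peak calls is not in the lists, and 1 library per strain allows no error. Of 173 alternative values for 41 results, 130 stayed within the 95% exact binomial interval over bins (or within 1.5 times for counts), WT stayed at 0 in all, and 43 moved. That interval counts bins as independent, though neighbouring bins share peaks. It is only a mark for staying or moving and no experimental error. The *SUMO-KallR* share of the rest was 61.7% with heights of at least 10 and 1.17% above the 95th percentile of untagged heights (48.3). The untagged share of the rest was 80.0% with heights of at least 5, 67.0% with at least 10 and 1.39% above that percentile. The left zone had 57.8% with heights of at least 10, 15.1% above the percentile and 57.1% in a 50 kb zone in *SUMO-KallR*, and 60.9%, 15.3% and 62.5% in the untagged strain. The right zone had 62.2%, 5.14% and 57.2% in *SUMO-KallR*, and 71.5%, 7.88% and 67.5% in the untagged strain. Bins of the fragments under peaks came to 71.4% by any base and 34.3% by the whole bin in *SUMO-KallR*, and 78.6% and 45.7% in the untagged strain. Bins of the rest came to 89.7% by any base, 69.7% by the whole bin, 62.7% with heights of at least 10 and 1.21% above the percentile in *SUMO-KallR*, and to 93.3%, 77.9%, 67.0% and 1.52% in the untagged strain, with 80.3% at heights of at least 5. Bins under *SUMO-KallR* peaks only came to more than 0 with heights of at least 5 (2%), at least 10 (2.50%), bins of 200 bp (1.2%), any base (1.25%) and less than 50% under the other list (2%). Bins under untagged peaks only came to 5.75% with heights of at least 10, 5.30% in bins of 200 bp, 5.5% by any base and 6% with less than 50% under the other list. By any base, 9 rRNA genes and 6 long terminal repeats were under *SUMO-KallR* peaks, and 10 and 6 under untagged peaks. The lower share of the fragments than of the rest turned round only with heights above the percentile. No paired analysis was possible because each strain has 1 library.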
